A study of Mus musculus with 6 samples.

Results

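Chemokines are small secreted proteins that draw leukocytes along a gradient, and a tumour cell that makes them can set which leukocytes enter a tumour. The 10 chemokine genes described here were Cxcl1, Cxcl2, Cxcl5, Cxcl10, Cxcl12, Cxcl16, Ccl2, Ccl5, Ccl7 and Cx3cl1, matched by symbol among the 53801 genes of each expression table. They were measured in CT26 cells, a BALB/c mouse colon carcinoma line that carried a barcode library and puromycin resistance in all groups. The groups were the parental line, which was the bulk of barcoded cells recovered from established tumours, and the lines B04 and B64, each a single clone grown from 1 such cell and chosen because its barcode became more frequent under both anti-PD1 and anti-CTLA4 treatment. Each group had 2 libraries, A and B. The titles call the samples tumours, whereas the study's methods describe lines cultured in RPMI-1640 medium in duplicates and name no treatment for this RNA. The labels do not say that A and B were separate cultures, and the word duplicates does not settle it. The p-values therefore measure the spread between these libraries, which may be technical.

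Of the 10 genes, 3 were read above the floor in all 6 libraries, namely Cxcl1, Cxcl10 and Ccl5. The floor was set at 3 counts in a library, about the number that a count of 0 allows, which corresponded to 0.128 to 0.155 CPM (counts scaled to the library total). A further 3 genes, Cxcl5, Cxcl16 and Ccl2, passed the floor in only 1 or 2 libraries. The remaining 4, Cxcl2, Cxcl12, Ccl7 and Cx3cl1, stayed at or under it in every library, so they were treated as not detected at this depth. Their counts were not all 0, and Cxcl12 had 1 or 2 in every library. None of the 3 detected genes passed the threshold between any 2 lines with DESeq2. The nearest was Cxcl1, whose fitted fold was 2.30 over the parental line in each clone.

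The chemokine families differ in the receptor they use and in the cells they attract. Cxcl1, Cxcl2 and Cxcl5 bind Cxcr2 on neutrophils, Cxcl10 binds Cxcr3 on activated T and natural killer cells, and Cxcl12 binds Cxcr4 and the scavenging receptor Ackr3. Ccl2 and Ccl7 attract monocytes through Ccr2, and Ccl5 acts on T cells and myeloid cells through receptors that include Ccr1 and Ccr3. Cxcl16 and Cx3cl1 are made as membrane proteins and are released by the proteases Adam10 and Adam17. Transcription of Cxcl1 and Cxcl2 is classically driven by NF-kappaB, and that of Cxcl10 by interferons acting through an interferon-stimulated response element (ISRE).

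The 250 bases before the RefSeq start of Cxcl1, Cxcl2 and Cxcl10 are shown. Cxcl1 and Cxcl2 were taken as neighbours, of which Cxcl1 passed the floor in every library and Cxcl2 in none. Cxcl10 was taken because it carries motifs of both pathways. Capitals mark matches to the kappaB consensus, searched under that name on both strands, and to the ISRE core GAAANNGAAA, and each run is written 5′ to 3′ on the strand of the gene in build GRCm38.p6.
Cxcl1, chr5:90890995-90891244, + strand: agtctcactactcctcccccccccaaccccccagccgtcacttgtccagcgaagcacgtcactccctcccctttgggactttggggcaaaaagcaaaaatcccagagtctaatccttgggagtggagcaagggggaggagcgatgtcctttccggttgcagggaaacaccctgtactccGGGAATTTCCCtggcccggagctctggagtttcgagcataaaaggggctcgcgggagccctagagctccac
Cxcl2, chr5:90903649-90903898, + strand: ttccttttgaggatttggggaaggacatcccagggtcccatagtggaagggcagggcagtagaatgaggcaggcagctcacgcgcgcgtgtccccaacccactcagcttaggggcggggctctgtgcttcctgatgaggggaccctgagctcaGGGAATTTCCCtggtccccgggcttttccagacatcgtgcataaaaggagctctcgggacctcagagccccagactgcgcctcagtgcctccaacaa
Cxcl10, chr5:92348890-92349139, - strand: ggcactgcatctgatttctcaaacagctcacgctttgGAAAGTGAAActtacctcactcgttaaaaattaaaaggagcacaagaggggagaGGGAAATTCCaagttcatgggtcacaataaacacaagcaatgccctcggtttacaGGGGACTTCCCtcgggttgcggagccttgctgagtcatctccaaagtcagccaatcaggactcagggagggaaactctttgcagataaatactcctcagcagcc

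Cxcl1 and Cxcl2 each held 1 run of capitals, and its letters were the same, GGGAATTTCCC, beginning 71 bases before the start of Cxcl1 and 97 bases before the start of Cxcl2. The run matched the consensus on both strands with an overlap. It lies within the longest stretch common to the 2 upstream regions, 14 bases in length. Cxcl10 held GGGAAATTCC 159 bases and GGGGACTTCCC 104 bases before its start, and the ISRE match GAAAGTGAAA 213 bases before it. Over 32851 RefSeq windows of 300 bases (250 before to 50 after a start), 8.46% held a kappaB match and 3.44% held an ISRE core. Windows were found for 5 of the 10 genes. That of Cxcl12 held neither motif nor the TATA box letters TATAAA, and that of Cx3cl1 held only TATAAA, which 13.6% of windows hold. The genes without a window were Cxcl5, Cxcl16, Ccl2, Ccl5 and Ccl7. A match describes letters and is not evidence that a factor bound there in these cells.

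Library totals ranged from 19409204 to 23472012 expected counts, of which the 10 genes together took 114 to 131, or 4.88 to 6.75 CPM. Expected counts are RSEM's estimate of fragments per gene. Those of the 10 genes were whole numbers in all 6 libraries within 0.005, so no fractional share of a read was seen. Whole numbers do not show that every read matched a single gene. Fragments were longest in the parental line (277.3 and 276.6 bases, taken as RSEM length less effective length) and shorter in B64 (220.8 and 246.2), with B04 between or alike (271.8 and 225.2), so fragment length and line were not independent. Endothelial markers were at or under the floor in every library. Of 13 leukocyte markers, 1 to 3 passed the floor, and Cd3e, Cd8a, Ly6g and Nkg7 were at 0 throughout. Of 8 colon epithelial markers, 3 or 4 passed the floor. Vil1 was at 0 in all libraries and Epcam and Cdh1 had at most 2 counts, whereas Krt18 reached 12.3 to 22.4 TPM (a level scaled by transcript length and library total). Cdx2, a transcription factor of intestinal epithelium, had 35 and 24 counts in the parental libraries and 0 in every clone library. Krt20, a keratin of intestinal epithelium, had 302 and 343 counts in the parental line, 314 and 297 in B04 and 694 and 777 in B64, and the summed epithelial markers were 45.7 and 48.2 TPM in B64 against 22.4 to 25.4 in the other libraries. Fibroblast markers summed to 339 to 368 TPM, nearly all of it Col1a2, and erythroid markers to at most 2.45 TPM. These are bulk libraries, in which fewer cells making a transcript and less transcript per cell cannot be told apart.

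**Figure D1:**
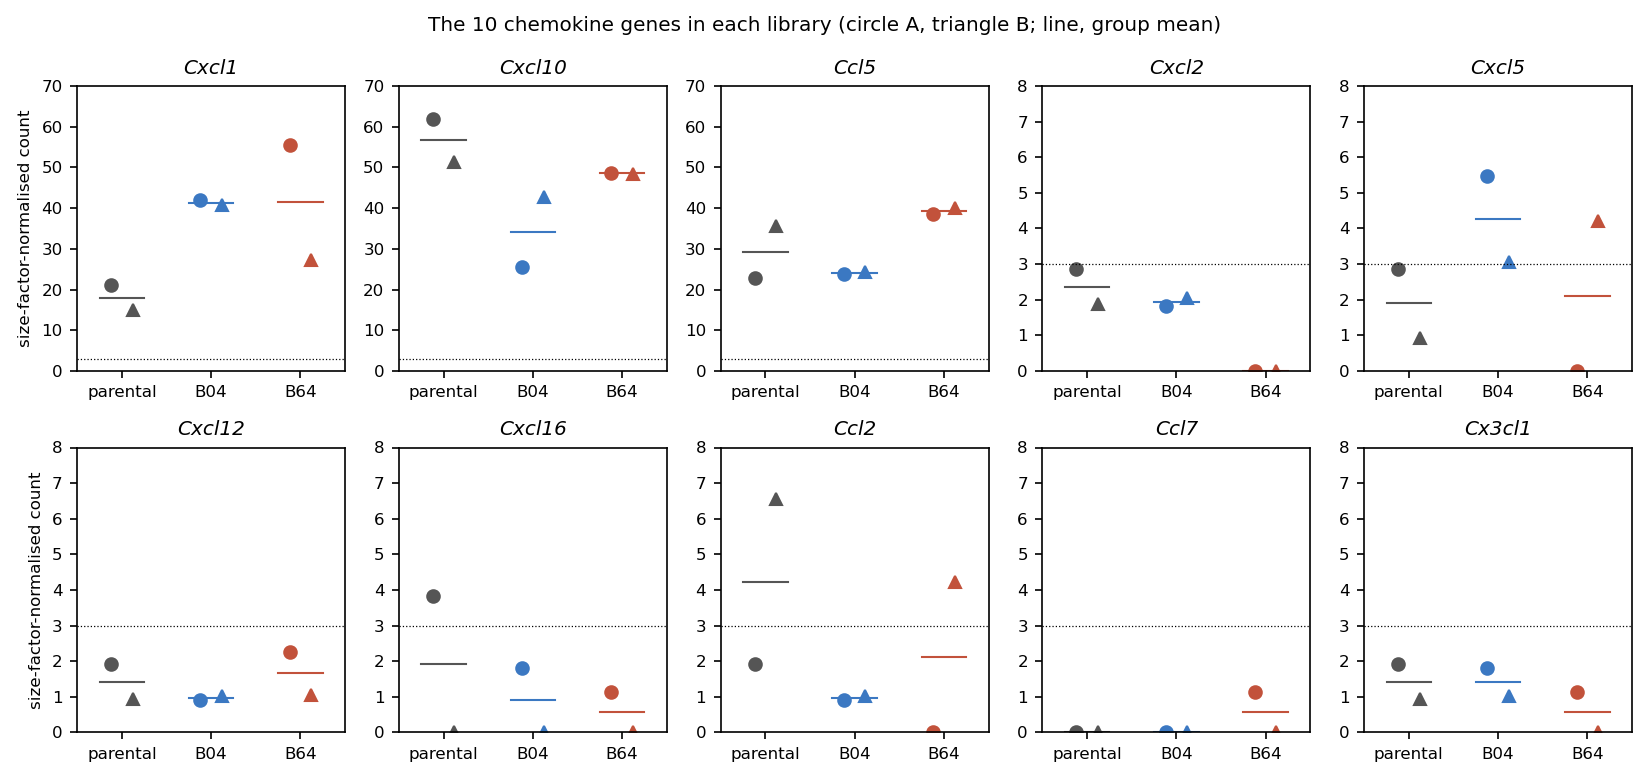
Size-factor-normalised counts (vertical axis) of the 10 chemokine genes in the 2 libraries of each line (horizontal axis), with circles for library A, triangles for library B, a line at each group mean and a dotted line at a count of 3. Cxcl1, Cxcl10 and Ccl5, drawn on an axis to 70, are above the dotted line in all 6 libraries, and the other genes, drawn on an axis to 8, lie around or below it.

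Among the Cxcr2 ligands, Cxcl1 (5:90891241-90893115 in GENCODE M21, + strand, protein-coding) was the only one detected throughout. It had 22 and 16 expected counts in the parental line (A and B), 46 and 40 in B04 and 49 and 26 in B64. After division by size factors the values were 21.0 and 15.0 in the parental line, 42.0 and 40.7 in B04, and 55.5 and 27.3 in B64. All 4 clone libraries lay above both parental libraries, an order seen in 15.4% of the 13218 genes tested. The 2 libraries of B04 lay close together, whereas those of B64 differed from each other by more than the clone means differed from the parental mean.

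Against the parental line, the log2 fold change of Cxcl1 in B04 was 1.20 (SE 0.55), a fold of 2.30 with a 95% interval of 1.09 to 4.87, and the DESeq2 adjusted p was 0.102. In B64 it was 1.20 (SE 0.55), a fold of 2.30 (1.08 to 4.88), with a DESeq2 adjusted p of 0.133. B64 and B04 differed by 0.00 on the log2 scale (SE 0.53), with a 95% interval from -1.03 to 1.03 that leaves room for a 2-fold difference in either direction. The edgeR quasi-likelihood test, which models the same counts, gave Cxcl1 an adjusted p of 0.0358 in B04 and 0.0509 in B64, so the call in B04 depended on the tool. Without library A of B64 the log2 fold change in B64 fell to 0.61 (DESeq2 adjusted p = 0.816), and without its library B it was 1.63 (DESeq2 adjusted p = 0.155). Both comparisons share the parental libraries, so the higher values in the clones are not independent of each other.

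Cxcl2 (5:90903871-90905938, + strand) begins 10755 bases beyond the end of Cxcl1. It had 3 and 2 counts in the parental line, 2 in each B04 library and 0 in each B64 library. No library passed the floor, so no fold is given. Cxcl5 (5:90759360-90761624, + strand) had 3 and 1 counts in the parental line, 6 and 3 in B04 and 0 and 4 in B64. Only B04 library A and B64 library B passed the floor, and the B64 values overlapped with those of both other lines.

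Cxcl10 (5:92346638-92348889, - strand), the ligand of Cxcr3, had the highest mean normalised count of the 10 genes. Its expected counts were 65 and 55 in the parental line, 28 and 42 in B04 and 43 and 46 in B64. The normalised counts were 62.0 and 51.4 in the parental line, 25.5 and 42.8 in B04, and 48.7 and 48.4 in B64. Both clones therefore lay below both parental libraries, and library A of B04 was the lowest of all. Lines did not overlap in 65.0% of genes tested between B04 and the parental line, and in 61.4% between B64 and the parental line.

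In normalised counts the log2 fold change of Cxcl10 was -0.74 (SE 0.45) in B04 against the parental line, with a DESeq2 adjusted p of 0.252. In B64 it was -0.22 (SE 0.44) with a DESeq2 adjusted p of 0.827. B64 against B04 gave 0.51 (SE 0.45) with a DESeq2 adjusted p of 0.483. Without B04 library A the value in B04 against the parental line was -0.41, and without B04 library B it was -1.15, while against B64 the same omissions gave 0.18 and 0.93. On the TPM scale, which divides by transcript length, the libraries took another order. TPM was 3.92 and 3.11 in the parental line, 1.64 and 4.82 in B04, and 5.17 and 2.96 in B64, so each clone had 1 library above and 1 below both parental libraries. RSEM gave Cxcl10 a length of 1094 bases in 4 libraries but 704 in B04 library B and 719 in B64 library A, which are also the 2 libraries with the shortest fragments. The part of fragment length in this was not tested. With effective length as an offset, the direction in B64 against the parental line turned to 0.15 (DESeq2 adjusted p = 0.928), and the value in B04 was -0.24 (DESeq2 adjusted p = 0.863).

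**Figure D2:**
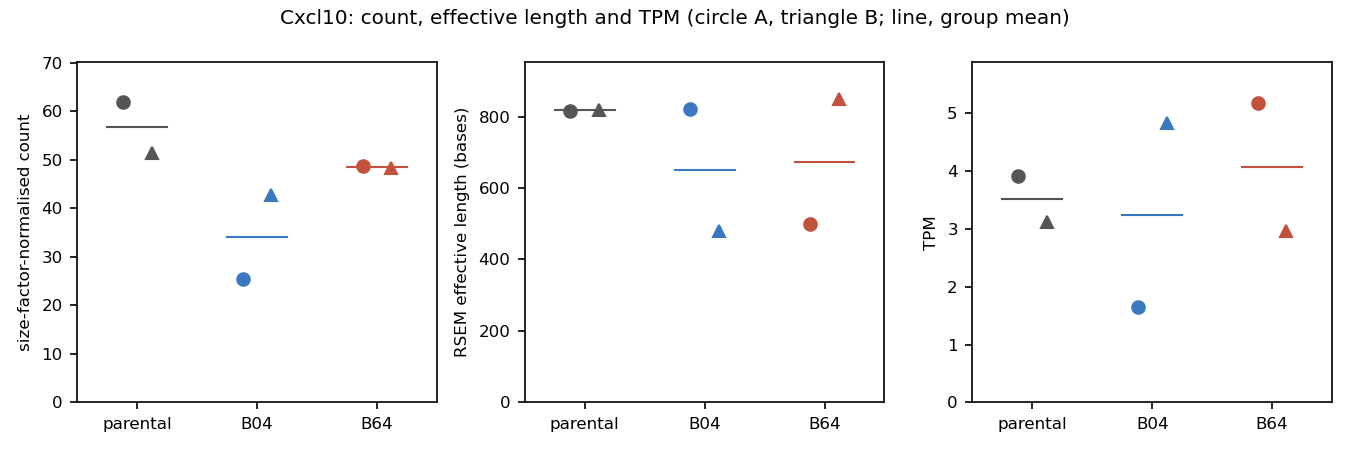
Cxcl10 in the 2 libraries of each line (circles A, triangles B, line at the group mean), as size-factor-normalised count, RSEM effective length in bases and TPM, each on an axis from 0. The parental libraries lead in counts, but the short effective lengths of B04 library B and B64 library A (480 and 499 bases) go with the 2 highest TPM values, 4.82 and 5.17.

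Ccl5 (11:83525778-83530518, - strand), an attractant of T cells, had the highest level per length of the 10 genes, with a mean of 5.73 TPM over the 6 libraries against 3.60 for Cxcl10 and 2.34 for Cxcl1. These were low levels, since 8744, 9568 and 10192 genes respectively had a higher mean TPM. Ccl5 had 24 and 38 counts in the parental line, 26 and 24 in B04 and 34 and 38 in B64. The normalised counts were 22.9 and 35.5 in the parental line, 23.7 and 24.4 in B04, and 38.5 and 40.0 in B64. The parental libraries spanned both libraries of B04, whereas both B64 libraries were above all others.

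For Ccl5 the log2 fold change was -0.28 (SE 0.54) in B04 against the parental line, with a DESeq2 adjusted p of 0.800. It was 0.42 (SE 0.52) in B64 against the parental line (DESeq2 adjusted p = 0.704), and 0.14 without parental library A or 0.77 without parental library B. B64 against B04 gave 0.71 (SE 0.53), a fold of 1.63 with a 95% interval of 0.791 to 3.36, and a DESeq2 adjusted p of 0.391. Lines that did not overlap were common, at 67.1% of the 12855 genes tested between the clones, 61.4% of genes between B64 and the parental line and 65.0% between B04 and the parental line. The length that RSEM gave Ccl5 was 532 bases in every library, but its effective length, by which TPM divides, was not constant. It was 255 and 256 bases in the parental line, 261 and 307 in B04 and 312 and 286 in B64. Counts and TPM both placed B64 highest by group mean, at 6.90 ± 0.488 TPM (SD, n = 2) in B64. The parental line had 5.75 ± 1.58 TPM and B04 had 4.55 ± 0.354. By mean TPM the order of the 3 genes was thus Ccl5, Cxcl10 and Cxcl1 in every line, but within B04 and B64 the library values of Cxcl10 and Cxcl1 overlapped, as did those of Ccl5 and Cxcl10 in B04.

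The monocyte chemoattractants were close to or under the floor. Ccl2 (11:82035571-82037453, + strand) had 2 and 7 counts in the parental line, 1 in each B04 library and 0 and 4 in B64. Its highest level was 0.53 TPM, in parental library B, and the 2 parental libraries differed from each other more than the groups did. Ccl7 (11:82045712-82047525, + strand) lies 8258 bases beyond Ccl2 and gave a single count in all, in B64 library A.

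Cxcl12 (6:117168535-117181367, + strand), the ligand of Cxcr4, had 1 or 2 counts in every library. The membrane-bound ligands were as low. Cxcl16 (11:70453983-70459984, - strand) had 4 and 0 counts in the parental line, 2 and 0 in B04 and 1 and 0 in B64. Cx3cl1 (8:94772009-94782427, + strand) had 2 and 1 counts in the parental line, 2 and 1 in B04 and 1 and 0 in B64. In each of these genes the counts of the lines overlapped or were tied, and no fold is given.

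DESeq2 tested 3 of the 10 in each comparison and called 0, and at an unadjusted p under 0.05 it had 1 gene (Cxcl1) in B04 and in B64 against the parental line and 0 between the clones, where the shares of all genes were 32.6%, 25.9% and 32.7%. The edgeR test called 1, 0 and 0 in the same order. Over all genes tested, DESeq2 called 24.1% in B04 against the parental line, 16.3% in B64 against the parental line and 24.3% in B64 against B04. With edgeR the shares were 34.6%, 24.6% and 34.0%. The median log2 fold change of the 3 tested genes was -0.28 in B04 and 0.42 in B64 against the parental line, beside 0.00 over all genes tested. Both medians are the value of Ccl5 alone and do not describe a shift of the set. Cxcl1 was at 1.20 in each clone, and Cxcl10 at -0.74 in B04 and -0.22 in B64. The 3 detected genes had means of 18.0 to 56.7 normalised counts per line, and their standard errors of 0.44 to 0.55 on the log2 scale set the size of change that could be seen.

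**Figure D3:**
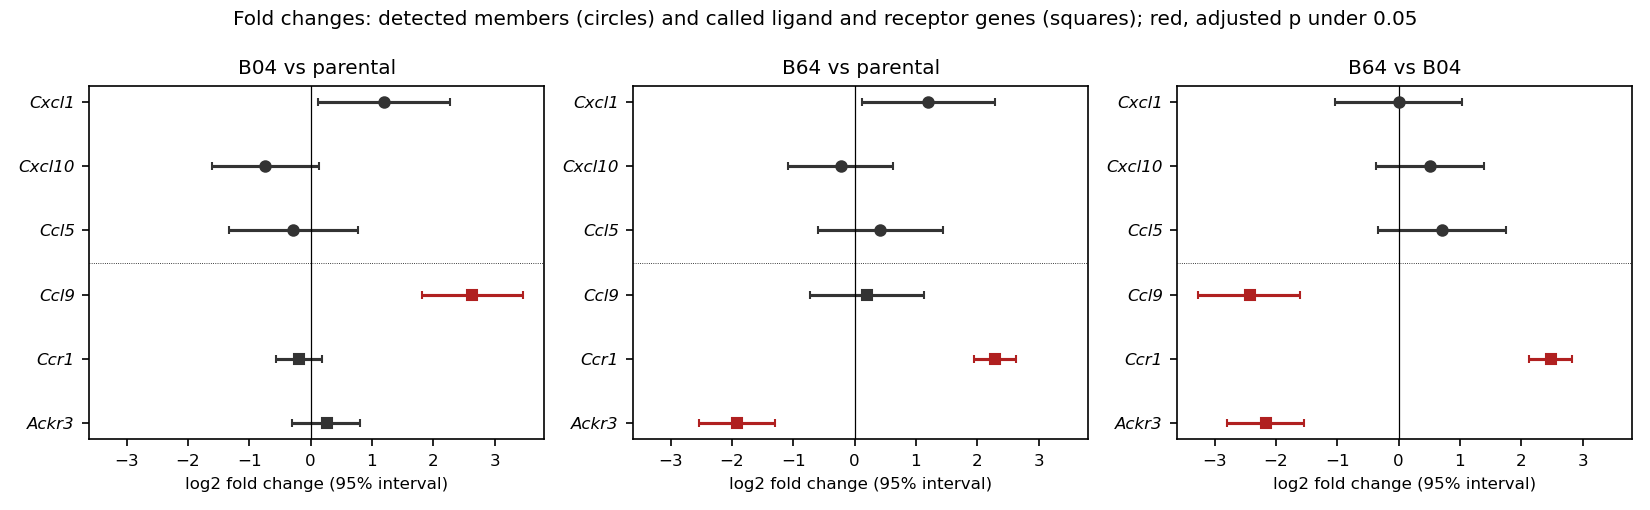
Log2 fold changes from DESeq2 (horizontal axis, points with 95% intervals) in the 3 comparisons for the detected chemokine genes (circles) and for Ccl9, Ccr1 and Ackr3 (squares), in red where the adjusted p was under 0.05. The intervals of Cxcl1 in both clones begin at 0.12, just above 0, yet no circle is red, whereas Ccl9 is red for B04 and Ccr1 and Ackr3 are red for B64.

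Of 30 other ligand genes, 6 passed the floor in some library and 3 in all, namely Ccl9, Ccl25 and Ppbp. Cxcl9, which lies beside Cxcl10 and shares its receptor, had 0 counts in all 6 libraries, and Cxcl11, on the other side of Cxcl10, had at most 4. Ccl25, a ligand of Ccr9, had 97 to 116 counts and 7.39 to 9.66 TPM, a higher mean count than any of the 10 genes, and no call in any comparison. Ppbp, a further Cxcr2 ligand located 6893 bases beyond Cxcl5, had 7 and 5 counts in the parental line, 15 and 11 in B04 and 17 and 12 in B64. As with Cxcl1, all 4 clone libraries lay above both parental ones, and its DESeq2 adjusted p was 0.424 in B04 and 0.300 in B64. Ccl25, Ppbp and Cxcl9 were chosen for mention after their values had been seen.

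Ccl9, a ligand of Ccr1 whose gene is 42400 bases from Ccl5, was the only chemokine ligand gene past the threshold with DESeq2. It had 21 and 20 counts in the parental line, 123 and 127 in B04 and 19 and 22 in B64. Both B04 libraries were far above the other 4. In B04 against the parental line the log2 fold change was 2.64 (SE 0.42), a fold of 6.23 (95% interval 3.50 to 11.1) with a DESeq2 adjusted p of 1.41e-08. In B64 against the parental line it was 0.21 (SE 0.47, DESeq2 adjusted p = 0.855), and B64 against B04 gave -2.43 (SE 0.42, DESeq2 adjusted p = 1.91e-07). Its neighbour Ccl5 measured 0.823 times the parental level in B04 (95% interval 0.397 to 1.71). The length that RSEM gave Ccl9 ran from 709 to 3006 bases between libraries, and with effective length as an offset the log2 fold change in B04 was 1.47 (DESeq2 adjusted p = 0.111).

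**Figure D4:**
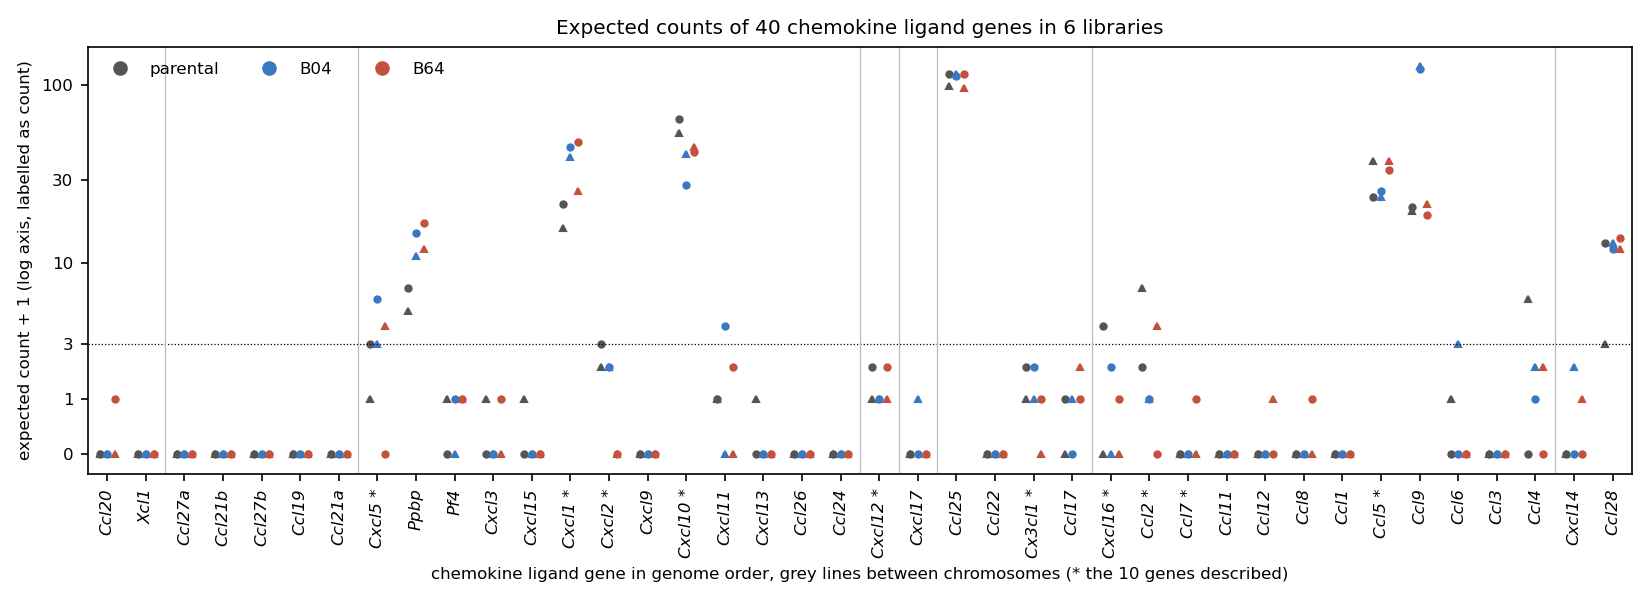
Expected counts of 40 chemokine ligand genes (vertical axis, count + 1 on a log axis labelled as counts) in 6 libraries, with circles for library A and triangles for B, placed in genome order with grey lines between chromosomes, an asterisk at the 10 genes described and a dotted line at 3 counts. Most genes lie at or below the dotted line in every library, and Ccl9 is the ligand whose B04 libraries (123 and 127 counts) stand clear of the rest.

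Receptors for the detected ligands were mostly not read. Of 18 chemokine receptor genes, 3 passed the floor, namely Ccr1, Ccr7 and Ccr10. Cxcr2 and Cxcr3, the receptors of Cxcl1 and Cxcl10, had at most 1 count in any library. Cxcr4, the receptor of Cxcl12, had at most 2. Ccr7 had 6 counts in each parental library, 11 and 8 in B04 and 15 and 19 in B64. Its log2 fold change in B64 against the parental line was 1.71 (SE 0.89), with an adjusted p of 0.204 in DESeq2 and 0.0298 in edgeR.

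Ccr1, which binds Ccl5 and Ccl9, had 189 and 167 counts in the parental line, 185 and 124 in B04 and 761 and 746 in B64. Both B64 libraries were well above the other 4. The log2 fold change in B64 was 2.29 (SE 0.18) against the parental line, a fold of 4.89 with a DESeq2 adjusted p of 6.1e-36. Against B04 it was 2.48 (SE 0.18, DESeq2 adjusted p = 4.03e-41), while B04 against the parental line gave -0.19 (SE 0.19, DESeq2 adjusted p = 0.573). Ccr1 is also made by myeloid cells, and the summed leukocyte markers moved with it, at 36.7 and 40.3 TPM in B64 against 10.6 to 12.6 in the other libraries. Nearly all of that sum was Cd68, with 644 and 614 counts in B64 and 167 to 205 elsewhere. Ptprc and Itgam, which myeloid cells carry, had at most 1 count in any library and Adgre1 at most 2. Lyz2 had 10 and 11 counts in B64 and 3 to 9 elsewhere, and Csf1r had 4 and 2 in B64, 0 in both B04 libraries and 0 and 3.52 in the parental line. The part of other cells in the Ccr1 difference was not tested.

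Ackr3, which takes up Cxcl12 without signalling through G proteins, had 126 and 196 counts in the parental line, 213 and 165 in B04 and 33 and 41 in B64. Both B64 libraries were the lowest. The log2 fold change was -1.91 (SE 0.32) in B64 against the parental line, with a DESeq2 adjusted p of 8.83e-08, and -2.17 (SE 0.32) against B04, with a DESeq2 adjusted p of 2.84e-10. With a term for fragment-length class the first was -1.70 and its DESeq2 adjusted p was 0.122. Its ligand Cxcl12 was at the floor in every library. Of the 5 atypical receptors, Ccrl2 was the only other one above the floor in any library, with 7 and 5 counts in the parental line, 2 in each B04 library and 0 in B64, a gene also picked after its values were seen.

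**Figure D5:**
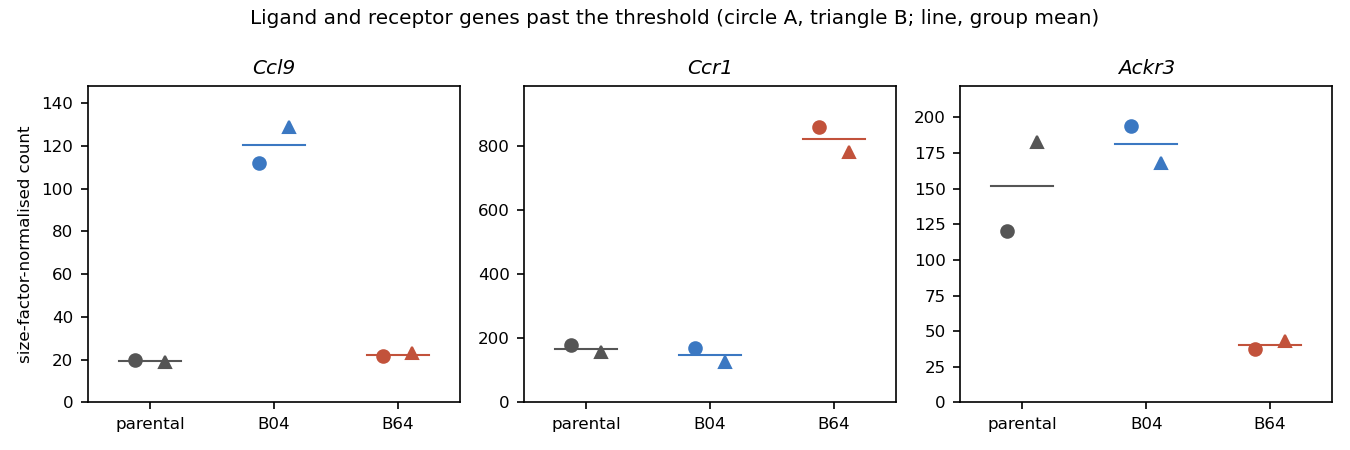
Size-factor-normalised counts (vertical axes from 0) of Ccl9, Ccr1 and Ackr3 in the 2 libraries of each line, with circles for library A, triangles for B and a line at the group mean. Ccl9 is high in both B04 libraries (112 and 129), Ccr1 in both B64 libraries (862 and 784), and Ackr3 is low in both B64 libraries (37.4 and 43.1).

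Adam10 and Adam17, which release Cxcl16 and Cx3cl1, were expressed although both substrates were near or under the floor. Adam10 ranged from 17.9 to 23.3 TPM and Adam17 from 10.1 to 13.2 TPM, and neither passed the threshold in any comparison. Of 6 proteases that release or trim chemokines 3 were tested. Dpp4 had 0 counts throughout, Mmp2 at most 4 and Mmp9 at most 5. Mmp14, a membrane metalloprotease, was the one called. Its level was 50.9 and 48.5 TPM in the parental line, 24.3 and 25.2 in B04 and 38.4 and 40.2 in B64. The log2 fold change was -1.09 (SE 0.08, DESeq2 adjusted p = 1.03e-35) in B04 and -0.37 (SE 0.08, DESeq2 adjusted p = 0.000146) in B64. The call in B64 was lost in 3 of 19 other settings, among them without B64 library A (-0.33). The 19 include a 2-fold minimum, which no log2 fold change under 1 in size can pass, and a stricter adjusted p. Part of each such tally, here and below, was therefore fixed by the main value.

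Genes of the NF-kappaB pathway, which acts on Cxcl1 and Cxcl2, moved in both directions. Of 18 listed, 15 were tested, and 4 rose and 2 fell in B04, 2 rose and 1 fell in B64, and 2 were higher and 2 lower in B64 than in B04. Among all genes tested, 11.2% rose and 12.9% fell in B04, 8.87% rose and 7.45% fell in B64, and 13.1% were higher and 11.1% lower in B64 than in B04. The inducers Tnf, Il1a and Il1b were not detected above 1 count. Rel, a subunit of NF-kappaB, rose in B04 by 1.08 (SE 0.14, DESeq2 adjusted p = 6.63e-13), with 928 and 723 counts against 412 and 383 in the parental line. Nfkbib, an inhibitor that holds NF-kappaB in the cytoplasm, changed by -0.49 (SE 0.09) in B04 and by 0.28 (SE 0.09) in B64, with DESeq2 adjusted p of 3.28e-06 and 0.0191. The second call was lost in 10 of 19 other settings. Ikbkg, the regulatory subunit of the kinase that removes such inhibitors, rose by 0.44 (SE 0.09) in B04 and 0.54 (SE 0.09) in B64, with DESeq2 adjusted p of 2.06e-05 and 1.39e-07, and each call was lost in 3 of 19 other settings. The other calls in B04, named after their values were seen, went both ways too. The inhibitors Nfkbia (0.75, SE 0.23) and Nfkbie (0.68, SE 0.26) rose, with DESeq2 adjusted p of 0.006 and 0.0418. The kinase Chuk fell (-0.25, SE 0.07, DESeq2 adjusted p = 0.00472). The median log2 fold change of the 15 tested genes was 0.05 in B04 and 0.11 in B64.

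Genes of the interferon and STAT axis, which acts on Cxcl10, were all detected. Of 13 tested, 1 rose and 3 fell in B04 against the parental line, 3 rose and 0 fell in B64, and 5 were higher and 1 lower in B64 than in B04. Over all genes tested, 11.2% rose and 12.9% fell in B04, and 8.87% rose and 7.45% fell in B64. Between the clones, 13.1% were higher and 11.1% lower in B64. Irf7, a transcription factor induced by interferon, had 1252 and 1302 counts in the parental line, 1052 and 838 in B04 and 2554 and 2564 in B64. Its log2 fold change was -0.41 (SE 0.09) in B04 and 1.21 (SE 0.09) in B64, with DESeq2 adjusted p of 0.000139 and 1.89e-38, the first of which was lost in 4 of 19 other settings. Stat2, a transcription factor of type I interferon signalling, rose in B64 by 0.51 (SE 0.12, DESeq2 adjusted p = 0.000380). This call was lost in 4 of 19 other settings, among them without parental library B (0.41) or B64 library A (0.45). Irf1, named after its values were seen, was the 1 gene that rose in B04 (0.73, SE 0.15, DESeq2 adjusted p = 1.17e-05). It was also the 1 gene lower in B64 than in B04 (-0.58, SE 0.15, DESeq2 adjusted p = 0.000878). Over the same lines the normalised means of Cxcl10 were 56.7 ± 7.47 (SD, n = 2) in the parental line, 34.1 ± 12.2 in B04 and 48.5 ± 0.242 in B64. None of the differences in Cxcl10 passed the threshold.

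Many chemokine mRNAs carry AU-rich elements, to which stabilising and decay factors bind. The 7 listed factors bind or cut chemokine and cytokine mRNAs, and their functions differ. All 7 were tested, and 1 fell in B04, 2 rose in B64, and 1 was higher in B64 than in B04. Over all genes tested, 12.9% fell in B04, 8.87% rose in B64 and 13.1% were higher in B64 than in B04. Elavl1, which stabilises such mRNAs, fell in B04 by 0.25 on the log2 scale (SE 0.08, DESeq2 adjusted p = 0.00761), a call lost in 9 of 19 other settings. Zfp36l2, which promotes their decay, rose in B64 by 0.19 (SE 0.06, DESeq2 adjusted p = 0.00856), a call lost in 8 of them. Zfp36, of the same family, was higher in B64 than in B04 by 0.55 (SE 0.19, DESeq2 adjusted p = 0.0191), lost in 12.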

How the data were processed

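Polyadenylated RNA of 6 libraries was sequenced as read pairs. Per the study's methods and the submitters' processing notes, the authors aligned reads to mm10 with STAR and quantified genes with RSEM. The deposited tables give expected counts, which RSEM estimates by dividing shared reads among genes. They also give TPM, scaled in the authors' RSEM run by library total and effective length, and the RSEM lengths (other deposited columns). FPKM was not used. The annotation release is not given in the sources used here, and neither is whether counting used strand, so reads from a gene and an antisense partner cannot be told apart. Of 53801 identifiers, 53620 (99.7%) matched a symbol in GENCODE M21 (GRCm38, the assembly of mm10), whose coordinates are printed. Promoter sequences are from RefSeq (GRCm38.p6).

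Groups were taken from the sample titles. Expected counts were rounded and tested with DESeq2 1.42.0 (R 4.3.3), the tool of the study, in 1 fit of all 6 libraries with line as the only term (Wald test, Benjamini-Hochberg adjusted p under 0.05 over all genes tested, independent filtering, no shrinkage). Alternatives used edgeR 4.0.16, limma 3.58.1 on log2(TPM + 1) and log2(TPM + 0.1), other filters, factors, offsets, blocks and thresholds, and left out each library in turn. The tests were checked on simulated counts, with changes set only in genes of higher mean count than any of the 10 described. That check therefore does not cover the low counts of the 10 genes. Normalised counts compare libraries within a gene and TPM compares genes. Folds are given for genes with a mean normalised count of at least 10. Intervals of 95% come from the fit, and the floor of 3 counts covers counting error only, since PCR copies are not independent molecules.

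The 10 genes and all gene lists were chosen with earlier results of these data known. Beside the 10, the named genes were every called ligand or receptor with a mean normalised count of at least 20, and at most 3 genes with the smallest adjusted p from each of 4 lists of regulators, of which 1 is not reported here. Other genes named are said to be chosen after their values were seen, or appear as the receptor, neighbour, inducer or marker that a value concerns. Replicate letters were not treated as pairing the libraries, since deviations from group means correlated by 0.11, 0.01 and -0.05 over 11996 genes.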

Additional observations from a re-analysis of the deposited data

Results flagged for a closer look

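The direct DESeq2 comparison of B64 with B04 flagged 9 of the genes named by the rule above, at an adjusted p under 0.05 over all genes tested. Chuk and Irf1, named after their values were seen, were also called there but fall outside that rule. Values are log2 fold changes. Over all genes tested in this comparison, 24.3% passed. Named genes outside the 10 were picked by their call or adjusted p in the 3 comparisons, this one included. The count of 9 is therefore not a result about them. None of the 10 chemokine genes was among the 9, but only 3 of the 10 were tested, at low counts. Ccl9 measured -2.43 (SE 0.42, adjusted p = 1.91e-07), Ackr3 -2.17 (SE 0.32, adjusted p = 2.84e-10) and Rel -0.85 (SE 0.14, adjusted p = 2.07e-08), all lower in B64. Ccr1 measured 2.48 (SE 0.18, adjusted p = 4.03e-41), the largest difference of these genes toward B64. Irf7 measured 1.62 (SE 0.09, adjusted p = 4.75e-67) and Stat2 0.75 (SE 0.12, adjusted p = 1.24e-08). Nfkbib measured 0.77 (SE 0.09, adjusted p = 1.11e-14) and Mmp14 0.72 (SE 0.09, adjusted p = 1.84e-15). Zfp36 measured 0.55 (SE 0.19, adjusted p = 0.0191). Irf7 and Nfkbib were called below the parental line in B04 and above it in B64. Stat2 (-0.25 in B04 and 0.51 in B64) and Ccr1 (-0.19 and 2.29) had the same signs but no call in B04. Zfp36 (-0.32 and 0.23) had these signs too, but was called in neither clone against the parental line (DESeq2 adjusted p 0.235 and 0.503).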

How the results depend on the processing

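Among 19 alternatives, the number of the 10 chemokine genes called stayed at 0 in B64 against the parental line and in B64 against B04. In B04 against the parental line it was 0 with all but the edgeR quasi-likelihood test, which gave 1 (Cxcl1, adjusted p from 0.0358 to 0.436 over its alternatives). Leaving out single libraries gave 0 in each comparison. With the replicate letter as a block it was 0 in each comparison too. Among the genes named by the rule above, that block ended only the call of Zfp36 (B64 against B04, 0.55). The log2 fold change of Cxcl1 stayed above 0 in both clones, between 0.72 and 1.46 in B04 and between 0.61 and 1.63 in B64. Between the clones its value of 0.00 turned to 0.02 with fragment-length class as a block, with effective length as an offset and without B04 replicate A, and ranged from -0.59 to 0.43 when single libraries were left out. Against the parental line, Cxcl10 in B64 turned to 0.15 with the effective-length offset, 0.14 with limma on log2(TPM + 1), with or without a minimum mean TPM of 1, and 0.16 on log2(TPM + 0.1). In the same order Ccl9 in B64 turned to -0.95, -0.42 (with and without the minimum) and -0.71, and these 4 alternatives ended its call in B04, at 1.47, 1.10 and 1.64. The 2 limma fits without a minimum TPM ended its call between the clones (-1.52 and -2.36). In these settings the length estimates of both genes enter the value. Ccl5 in B04 turned to 0.07 without parental replicate B (range -0.56 to 0.07). Ackr3 in B04 turned to -0.02 without parental replicate A (range -0.02 to 0.59), and Ccr1 in B04 went to 0.00 without B04 replicate B (range -0.42 to 0.00) and with the fragment-length block. Calls in B64 against the parental line were lost for Nfkbib without parental replicate A (0.21) or either B64 replicate (0.23 and 0.34) and for Zfp36l2 without parental replicate A (0.16) or B64 replicate B (0.14). Elavl1 in B04 lost its call without either parental replicate (-0.28 and -0.24) or B04 replicate B (-0.21), and Zfp36 between the clones without any 1 of the 4 clone libraries (0.45 to 0.67). Ikbkg lost its calls on both limma scales without a minimum TPM (0.63 and 0.65 in each clone) and under a 2-fold minimum, and Irf7 in B04 in these (-0.36 and -0.37) and with the fragment-length block (-0.33). The cause was not tested. Parental libraries all fall in the long class of fragments (over 260 bases) and B64 libraries in the short class, so that block rests on B04. Counts under about 100 a gene and 2 libraries a line limit what can be seen of the detected chemokines.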
